A study of Rattus norvegicus with 16 samples.

Results

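The nuclear-encoded genes of the mitochondrial respiratory chain were measured in the pontine nuclei of rats. Members were the probe sets whose single platform symbol starts with Nduf, Sdha to Sdhd, Uqcr, Cox4 to Cox8 or Atp5, or equals Cycs or Cyc1. They numbered 56 of the 4358 genes with such a symbol, on 101 of the 8799 probe sets of the array. Of these, 53 genes on 84 probe sets were called Present on at least 3 of 16 arrays and were tested. The pontine nuclei are brainstem cell groups whose neurons project to the cerebellum. These projecting axons had received saline, lysolecithin (a lysophospholipid used to demyelinate axons) or a transection, and tissue was collected at days 4, 10 and 37. Each condition had 1 Affymetrix array of total RNA: 9 arrays from the lesion side, 6 from the contralateral side (each intervention, days 10 and 37) and 1 healthy control array. The labels name no further agent or allele for any group, and the 7 control arrays are the contralateral arrays plus the healthy one. Strain, genotype, age and the number of animals behind an array are not given in the sources used here. No condition was repeated, so days served as replicates, and every error below is limited by having so few arrays.

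The respiratory chain passes electrons from NADH through complex I (the Nduf genes), or from succinate through complex II (Sdh), to ubiquinone, complex III (Uqcr and Cyc1), cytochrome c (Cycs) and complex IV (Cox), which reduces oxygen. Complex V (Atp5) uses the resulting proton gradient to make ATP, on which neurons with long axons depend for ion pumping and transport. Most subunits are encoded in the nucleus. Those of complexes I, III, IV and V must be matched to a few subunits encoded in the mitochondrial DNA. The nuclear genes are known to share the transcription factors NRF-1, GABP (an ETS-family factor) and YY1.

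Promoters from RefSeq (build GRCr8, 250 bases before to 50 after the start) were matched for 47 of the 56 genes. The NRF-1 core GCGCANGCG, searched on both strands, was found in 9 of the 47 (19.1%) and in 6.26% of all 27457 promoters of 300 bases. The ETS core CCGGAAG was found in 10 (21.3%), against 9.22% of all promoters. The YY1 core AANATGGC was found in 22 (46.8%), against 7.36%, and 17 of its 22 matches began between position -50 and position 50. Positions were not counted over all promoters, so that share has no background beside it. The core holds the letters ATG, and overlap of its matches with a start codon was not tested. At least 1 of the 3 cores was present in 29 of the 47 (61.7%) and in 19.8% of all promoters. The median GC content was 56% in the members and 52.3% in all promoters, and a match is a description of letters, not of binding. Shown here, 5′ to 3′ on the strand of the gene with matches in capitals, are Ndufb8, which holds the only member probe set that passed the test between interventions, Ndufs6 and Ndufa6, which hold matches to several cores, and Cox7b and Cox4i1 of complex IV.
Ndufb8: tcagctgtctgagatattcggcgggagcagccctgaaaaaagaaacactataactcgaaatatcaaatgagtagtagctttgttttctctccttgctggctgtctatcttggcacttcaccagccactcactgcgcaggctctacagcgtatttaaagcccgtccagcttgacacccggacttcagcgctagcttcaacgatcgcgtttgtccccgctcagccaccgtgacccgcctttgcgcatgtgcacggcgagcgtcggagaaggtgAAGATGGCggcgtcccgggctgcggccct
Ndufs6: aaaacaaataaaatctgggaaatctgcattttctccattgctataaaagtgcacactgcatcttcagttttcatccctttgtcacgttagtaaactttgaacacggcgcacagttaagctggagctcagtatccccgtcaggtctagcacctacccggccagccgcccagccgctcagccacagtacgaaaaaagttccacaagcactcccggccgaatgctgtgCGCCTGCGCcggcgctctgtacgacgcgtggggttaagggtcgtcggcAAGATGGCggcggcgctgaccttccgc
Ndufa6: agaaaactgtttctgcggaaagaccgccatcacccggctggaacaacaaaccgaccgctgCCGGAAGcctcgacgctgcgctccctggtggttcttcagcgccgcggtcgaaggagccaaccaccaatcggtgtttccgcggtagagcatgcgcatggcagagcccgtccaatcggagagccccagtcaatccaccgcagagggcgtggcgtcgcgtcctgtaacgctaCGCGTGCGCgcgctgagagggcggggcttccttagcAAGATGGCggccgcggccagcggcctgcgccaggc
Cox7b: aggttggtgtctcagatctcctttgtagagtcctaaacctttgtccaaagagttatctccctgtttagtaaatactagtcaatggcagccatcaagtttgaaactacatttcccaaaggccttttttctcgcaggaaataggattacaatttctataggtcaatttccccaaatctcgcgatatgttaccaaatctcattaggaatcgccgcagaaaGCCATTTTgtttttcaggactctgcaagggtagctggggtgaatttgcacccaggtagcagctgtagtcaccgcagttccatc
Cox4i1: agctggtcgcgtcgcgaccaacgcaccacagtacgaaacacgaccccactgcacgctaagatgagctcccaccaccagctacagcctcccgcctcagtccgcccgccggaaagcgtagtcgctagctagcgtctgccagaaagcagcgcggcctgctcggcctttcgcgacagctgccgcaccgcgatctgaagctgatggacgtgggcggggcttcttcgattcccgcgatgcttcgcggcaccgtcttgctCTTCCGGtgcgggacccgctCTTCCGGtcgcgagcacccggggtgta
The Ndufb8 promoter (chr1:253362887-253363186, minus strand) has its YY1 core 22 bases after the start, and that of Ndufs6 (chr1:31797150-31797449, plus strand) begins at position 24, with an NRF-1 core at -25. Ndufa6 (chr7:115750268-115750567, minus strand) holds all 3 cores, with NRF-1 at -21, ETS at -190 and YY1 at 16. Cox7b (chrX:75148786-75149085, plus strand) has a YY1 core on the opposite strand at -33. Cox4i1 (chr19:65630133-65630432, plus strand) has a pair of ETS cores on the opposite strand, at 4 and 24, with no overlap between them.

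The tested genes comprised all 27 of complex I, both of complex II, all 4 of complex III, 10 of 13 of complex IV and all 10 of complex V. Genes were assigned by symbol, so the group of complex I includes the assembly factor Ndufaf3 and also Ndufa4 and Ndufa4l2, whose protein family is now usually placed with complex IV. The 3 untested genes were Cox6a2 and Cox8b, the heart and skeletal muscle forms of complex IV subunits, and Cox6c-ps1, a pseudogene. Cox6a2 was Present on 1 of 16 arrays by one probe set and on 0 by the other, and Cox8b and Cox6c-ps1 were Present on 0. The muscle markers on the array were likewise Present on 0 arrays. Defining neuronal markers were detected on every array, among them Nefl with signals of 8670 to 14109 and Snap25 with 6031 to 10666. Cycs is carried only by a probe set with several symbols and was therefore not a member.

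Of all probe sets, 39.9% to 47.1% were called Present on an array. The brightest member gene was Cox4i1, the regulatory subunit of complex IV that is expressed in most tissues, with a mean signal of 21050. Atp5f1b, the catalytic beta subunit of the ATP synthase, had 12250, Ndufb8, an accessory subunit of the membrane arm of complex I, had 10230, Uqcr11, a small subunit of complex III, had 8404, and Sdha, the flavoprotein of complex II, had 4619. These are probe set brightnesses and give no order of transcript abundance between genes.

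The level of the whole set on an array was summarised as a score, the mean over the 53 genes of the log2 signal minus the mean of that probe set over 16 arrays. The 3 saline lesion arrays scored 0.21 (day 4), 0.07 (day 10) and 0.17 (day 37). The lysolecithin lesion arrays scored -0.06, -0.08 and 0.01 on the same days, and the transection lesion arrays 0.07, -0.15 and -0.05. All saline lesion arrays lay above all lysolecithin and transection lesion arrays, the closest being saline day 10 and transection day 4. The controls spanned the same range, from -0.19 (transection day 10 contralateral) to 0.18 (transection day 37 contralateral), with the healthy control at -0.08.

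Beside each score stands the 3′/5′ signal ratio of beta-actin on the same array, a standard check of RNA integrity and of the length of the oligo-dT primed cDNA. The ratio was 1.68, 1.41 and 1.43 on the saline lesion arrays of days 4, 10 and 37. It was 1.44, 1.20 and 1.22 on the lysolecithin lesion arrays and 1.42, 1.08 and 1.07 on the transection lesion arrays. Among controls it was lowest on the healthy array (1.04) and highest on the transection day 37 contralateral array (1.53). Saline day 4 lesion had the highest ratio and the highest score of the 16 arrays, and transection day 37 contralateral was second in both.

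Over the 16 arrays the score followed log2 of the ratio with Pearson's r = 0.847 and Spearman's rho = 0.797. Without the 2 arrays farthest from the median ratio, r was 0.744. It was 0.814 within the 9 lesion arrays and 0.885 within the 7 controls, so the relation was present on both sides, and it was 0.852 without the healthy control. No p is given, since the score is a mean over chosen members and the arrays share groups. The GAPDH ratio (1.03 to 1.26) and the hexokinase ratio (1.74 to 2.57) did not show it when read gene by gene. The median r of single member genes was -0.17 with the first and -0.06 with the second, against 0.583 with the actin ratio. The r of the score with the GAPDH and hexokinase ratios was not taken.

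**Figure D1:**
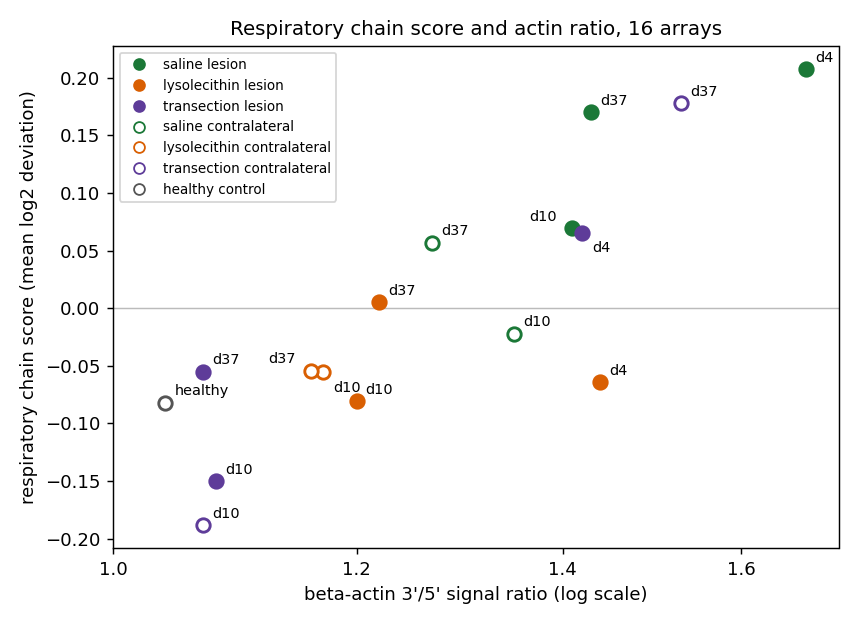
Respiratory chain score of each array (vertical axis, mean log2 deviation over 53 genes) against its beta-actin 3′/5′ signal ratio (horizontal, log scale). Filled points are lesion arrays, open points controls, colour gives the intervention and the label the day; saline day 4 lesion (ratio 1.68, score 0.21) and transection day 10 contralateral (1.07, -0.19) lie at the ends.

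Gene by gene, the median r with log2 of the actin ratio was 0.583 over the 53 genes and 0.0266 over all 4413 tested probe sets. It was above 0 for 46 of 53 genes, against 51.8% of all probe sets, and over 0.5 for 28 of 53, against 13.4%. Among tested probe sets with a mean signal over 2000, a limit chosen after the data were seen, the median r was 0.211 for all 1094 and 0.612 for the 44 members, so brighter probe sets in general leaned the same way by a smaller amount. The genes that followed the ratio most closely were Ndufa8 (r = 0.929), an accessory subunit of complex I, Ndufa6 (0.880), another one, Cox7b (0.870), a small subunit of complex IV, and Atp5po (0.847), the OSCP subunit of the stalk that holds the ATP synthase head. For Ndufa8 the 5 arrays with the lowest signals were transection day 10 contralateral (3422), transection day 10 lesion (3509), the healthy control (3590), transection day 37 lesion (3659) and lysolecithin day 10 lesion (4201). Its highest signal was on the transection day 37 contralateral array (6279). Each r is that of the brightest tested probe set of the gene, and other probe sets can differ. The dimmer Ndufa6 probe set, rc_AI229924_at, read 610 on saline day 4 lesion (ratio 1.68) and 914 on transection day 10 lesion (1.08). On the same arrays the brightest read 6323 and 3685. The dimmer Atp5po probe set, D13127_at, had its highest control signal (7513) on the healthy array, where the ratio was lowest (1.04).

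Against this stood 7 genes with r below 0. Sdhaf2, the factor that attaches the flavin to Sdha, had r = -0.796, Cox4i2, the lung-enriched and oxygen-responsive form of subunit 4, had -0.627, and Cox6c, a small subunit of complex IV, had -0.589. Ndufa4l2, a hypoxia-inducible relative of Ndufa4, had -0.575, Ndufs1, the largest core subunit of complex I, had -0.455, Cox5a had -0.139 and Cox8a -0.0763. Mean signals of these 7 had a median of 1149, against 4753 for the other 46, and Cox8a alone was bright (15930). Cox4i2 was Present on 3 of 16 arrays, Cox6c on 10 and Ndufa4l2 on 11. These too are values of the brightest tested probe set. For Cox6c it read 1090 on saline day 4 lesion (ratio 1.68) and 1222 on transection day 37 lesion (1.07). A dimmer Cox6c probe set, M27467_at, read 187 and 78.6 on the same arrays.

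**Figure D2:**
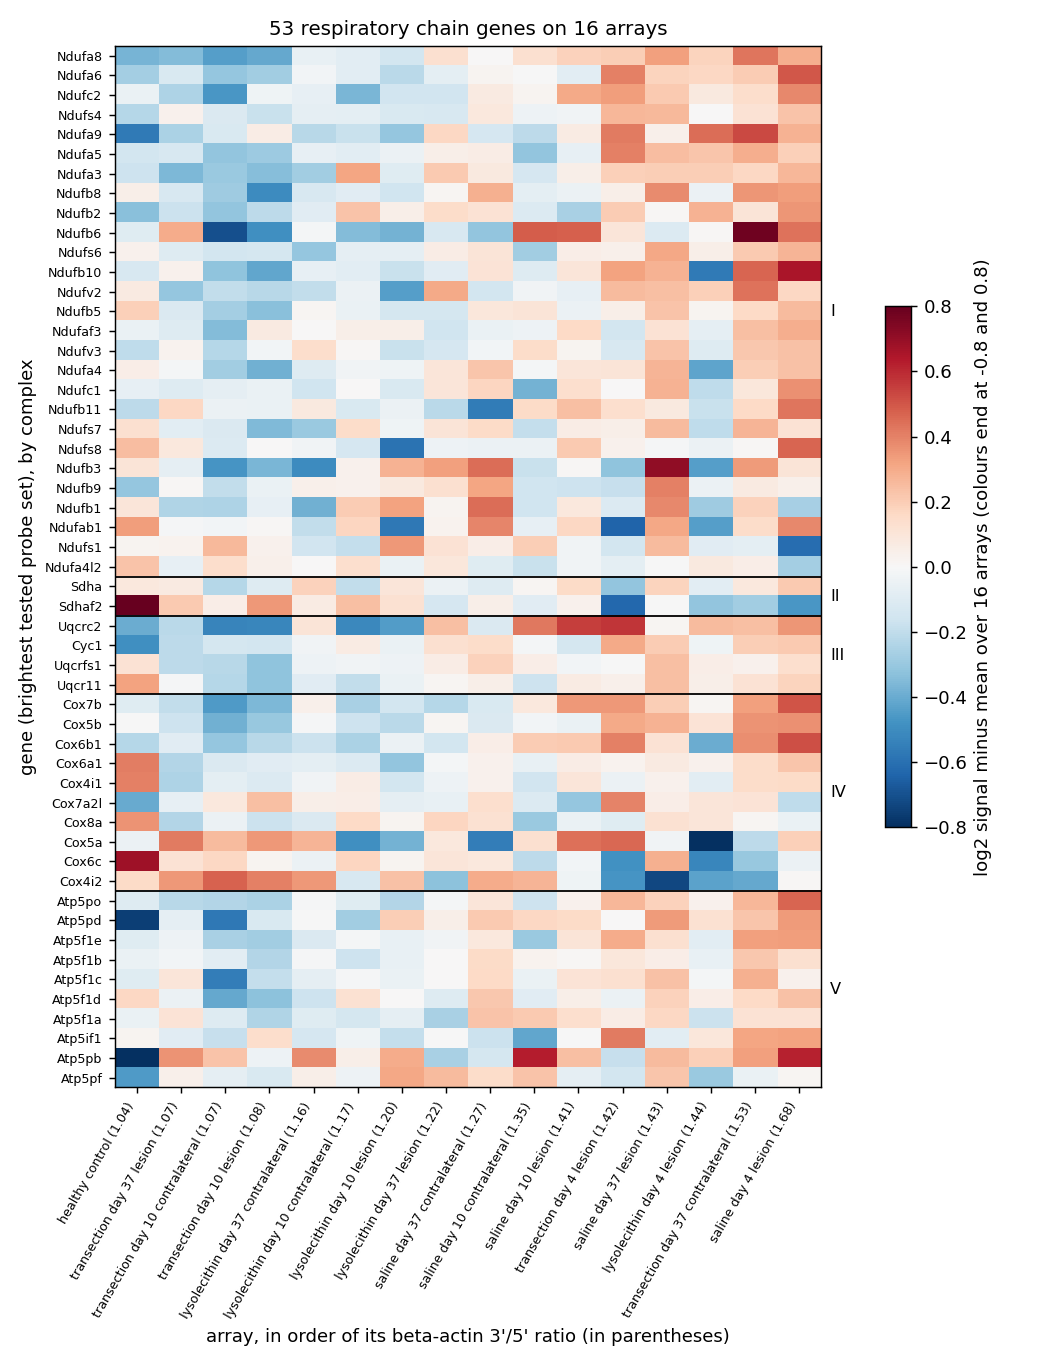
Log2 signal of each of the 53 genes (rows, by complex) minus its mean over 16 arrays, with arrays (columns) in order of the beta-actin 3′/5′ ratio from 1.04 to 1.68; blue is below and red above the mean, and the colours end at the limits on the scale. Ndufa8 and most other rows turn from blue at the low-ratio end to red at the high-ratio end, while Sdhaf2, Cox6c and Cox4i2 run the other way.

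Other lists moved less with the ratio. The score of 10 genes of the TCA cycle and pyruvate dehydrogenase had r = 0.433, that of 40 ribosomal protein genes 0.436, that of 7 mitochondrial carriers, channels and creatine kinase 0.381, and that of 11 glycolysis enzymes 0.0875. Of cell type markers, 7 astrocyte genes had r = -0.616, 6 oligodendrocyte genes -0.393, 9 neuronal genes 0.23 and 6 microglia and macrophage genes 0.0274. In these bulk samples fewer cells of a type and less RNA per cell cannot be told apart.

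The first comparison asks how the nuclei of transected axons differed from those of saline-exposed axons on the lesion side. With limma and Benjamini-Hochberg adjustment over all tested probe sets, 32 of 4413 passed at 0.05 (0.725%), among them 1 of 84 member probe sets, for Ndufb8, which fell. Of the 53 genes, each read by its brightest probe set, 46 were lower and 7 higher after transection, with a median log2 difference of -0.22 against 0.0041 over all tested probe sets. At an unadjusted p under 0.05, 20 genes were lower, where 7.86% of all probe sets were, and 1 was higher (Cox7a2l), where 9.09% were. On all 3 days 31 genes were lower, against 17.7% of probe sets, and 14 were lower with no overlap between transection and saline arrays, against 7.18%, while 0 were higher without overlap, against 7.93%. Counted by probe set, 20 of 84 members were lower and 3 higher without overlap. At the unadjusted p, 27 member probe sets were lower and 4 higher. Bright probe sets in general leaned the same way: all 1094 tested probe sets with a mean signal over 2000 had a median of -0.0542 with 60.1% lower, and the 44 members among them had -0.254 with 42 lower. The members' medians on days 4, 10 and 37 were -0.14, -0.23 and -0.25. In the 7 control arrays, signals of these genes spread over a range similar to that between the interventions, as the control values beside each gene show.

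In complex I, 25 of 27 genes were lower, with a median of -0.25. The Ndufb8 probe set that passed, rc_AA851403_g_at, had signals of 11076, 7687 and 8638 on saline days 4, 10 and 37 and 7857, 5384 and 5740 on transection days 4, 10 and 37. The transection arrays were lower on every day, but transection day 4 lay above saline day 10, and the 7 controls ran from 5613 through a median of 8046 to 9942. Ndufb8 by this probe set was 1.45-fold lower, a log2 difference of -0.53 ± 0.10 (SE, 3 arrays against 3) with a limma adjusted p of 0.0433. This call was lost in 12 of 15 reanalyses with other settings and whenever any 1 of the 9 arrays was left out. The brighter Ndufb8 probe set, rc_AA964320_at, read 12753, 9770 and 13123 on the saline arrays, 10430, 7129 and 9222 on the transection arrays and 8303 to 12894 (median 9543) on controls. It too was lower on every day with overlap, by a log2 difference of -0.42 ± 0.10, and did not pass (limma adjusted p = 0.0917).

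Ndufa8 had signals of 5705, 5286 and 5846 after saline, 5340, 3509 and 3659 after transection, and 3422 to 6279 (median 4466) in controls. Transection day 4 lay within the saline arrays and the later days well below them, for a log2 difference of -0.45 ± 0.13 (limma adjusted p = 0.122). Ndufb3, an accessory subunit of the membrane arm, read 4478, 4203 and 6829 after saline, 3334, 3231 and 3972 after transection and 2932 to 5696 (median 4267) in controls. Its groups did not overlap, and its log2 difference of -0.53 ± 0.16 (adjusted p = 0.14) was the lowest of the 53. Ndufab1, the mitochondrial acyl carrier protein, read 7975, 6840 and 7574 after saline and 3906, 6158 and 6070 after transection, with controls from 5336 to 8024 (median 6760). Its groups did not overlap either (-0.50 ± 0.17, adjusted p = 0.178), and most of the difference came from day 4.

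Ndufs6, a zinc-binding subunit of the peripheral arm, read 7585, 6492 and 7764 after saline, 6436, 5688 and 5841 after transection and 5058 to 7247 (median 5968) in controls. Ndufa3, a small accessory subunit, read 4521, 3884 and 4315 after saline, 4287, 2957 and 2928 after transection and 3053 to 4683 (median 3423) in controls. Ndufc1, also accessory, read 6088, 5179 and 5723 after saline, 4726, 4554 and 4396 after transection and 3630 to 5310 (median 4512) in controls. The arrays did not overlap for Ndufs6 and Ndufc1 and did for Ndufa3, with log2 differences of -0.28 ± 0.10, -0.31 ± 0.12 and -0.34 ± 0.13 in that order of naming and limma adjusted p of 0.194, 0.212 and 0.21. Only Ndufs1 (0.10) and Ndufa4l2, both dim, were higher after transection in this complex.

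Sdha, the one tested structural gene of complex II, read 5319, 5097 and 5206 after saline, 3686, 4282 and 4818 after transection and 3918 to 5231 (median 4637) in controls. Every transection array was below every saline array, with a log2 difference of -0.30 ± 0.12 (limma adjusted p = 0.232). Sdhaf2 read 1052, 1491 and 1454 after saline, 938, 1856 and 1685 after transection and 1197 to 2547 (median 1513) in controls, the highest on the healthy array. It was lower on day 4 and higher on the later days, for a log2 difference of 0.12 ± 0.15 (adjusted p = 0.7).

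All 4 genes of complex III were lower, with a median of -0.28. Uqcrfs1, the Rieske iron-sulfur protein, read 7976, 7136 and 8556 after saline, 7225, 5788 and 6281 after transection and 6222 to 8255 (median 7439) in controls. Uqcr11 read 9437, 8726 and 9856 after saline, 8600, 6670 and 8286 after transection and 7128 to 10427 (median 7842) in controls. Uqcr11 showed no overlap between saline and transection and Uqcrfs1 did, at log2 differences of -0.26 ± 0.10 (adjusted p = 0.219) and -0.30 ± 0.10 (adjusted p = 0.183) by limma.

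In complex IV 7 of 10 genes were lower, with a median of -0.20. Cox7b read 7902, 7106 and 6406 after saline, 7105, 4343 and 4854 after transection and 4070 to 7008 (median 5208) in controls. Transection day 4 lay among the saline arrays, and the log2 difference was -0.42 ± 0.12 (limma adjusted p = 0.134). Cox4i1 read 23308, 22353 and 21480 after saline, 20257, 19377 and 17603 after transection and 18854 to 27727 (median 21447) in controls, the highest on the healthy array. The groups did not overlap, at -0.23 ± 0.08 (adjusted p = 0.203).

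Of the 7 genes that were higher after transection, 3 were in complex IV. Cox7a2l, a factor that joins complexes III and IV into supercomplexes, read 3171, 2945 and 3784 after saline, 4818, 4313 and 3486 after transection and 2759 to 3999 (median 3793) in controls. It was higher on days 4 and 10 and lower on day 37, for a log2 difference of 0.34 ± 0.14 (limma adjusted p = 0.246). Cox4i2 read 1162, 1127 and 691 after saline, 828, 1528 and 1472 after transection and 864 to 1604 (median 1397) in controls, and its difference of 0.34 ± 0.22 rests on a probe set Absent on most arrays. Cox5a, a core-adjacent subunit read here by a dim probe set, had 342, 410 and 291 after saline, 415, 383 and 402 after transection and 198 to 363 (median 288) in controls. The Cox5a groups overlapped (0.21 ± 0.22, adjusted p = 0.658).

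In complex V 9 of 10 genes were lower, with a median of -0.18. Atp5pd, the d subunit of the peripheral stalk, read 6174, 5412 and 6178 after saline, 4875, 4467 and 4642 after transection and 2885 (healthy) to 5671 (median 4866) in controls. All transection arrays were below all saline arrays, at -0.34 ± 0.11 (limma adjusted p = 0.157). Atp5po read 12173, 9035 and 10012 after saline, 10629, 7393 and 7560 after transection and 7514 to 10612 (median 8244) in controls, with overlap and a log2 difference of -0.30 ± 0.10 (adjusted p = 0.191). Atp5f1b, the brightest gene of the complex, read 13380, 12297 and 12679 after saline, 13022, 10385 and 12012 after transection and 10868 to 14190 (median 12126) in controls. It moved least of these, at -0.12 ± 0.09 (adjusted p = 0.536). Atp5if1, the inhibitor that holds the ATP synthase when respiration stops, was the one gene of complex V that was higher (0.08).

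Probe sets of 1 gene did not always point one way. Of 24 genes with several tested probe sets, 5 had both signs between transection and saline. Ndufa6 was lower by its brightest probe set (-0.20) and higher by a dim one (0.41), and Ndufaf3, an assembly factor of complex I, was lower by its brightest (-0.25) and higher by the others (0.17 and 0.40). Ndufs4 (-0.11 and 0.10), Ndufb6 (-0.30 and 0.03) and Cox8a (-0.17, with 1 of 4 probe sets at 0.13) also differed in sign. None of these passed.

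**Figure D3:**
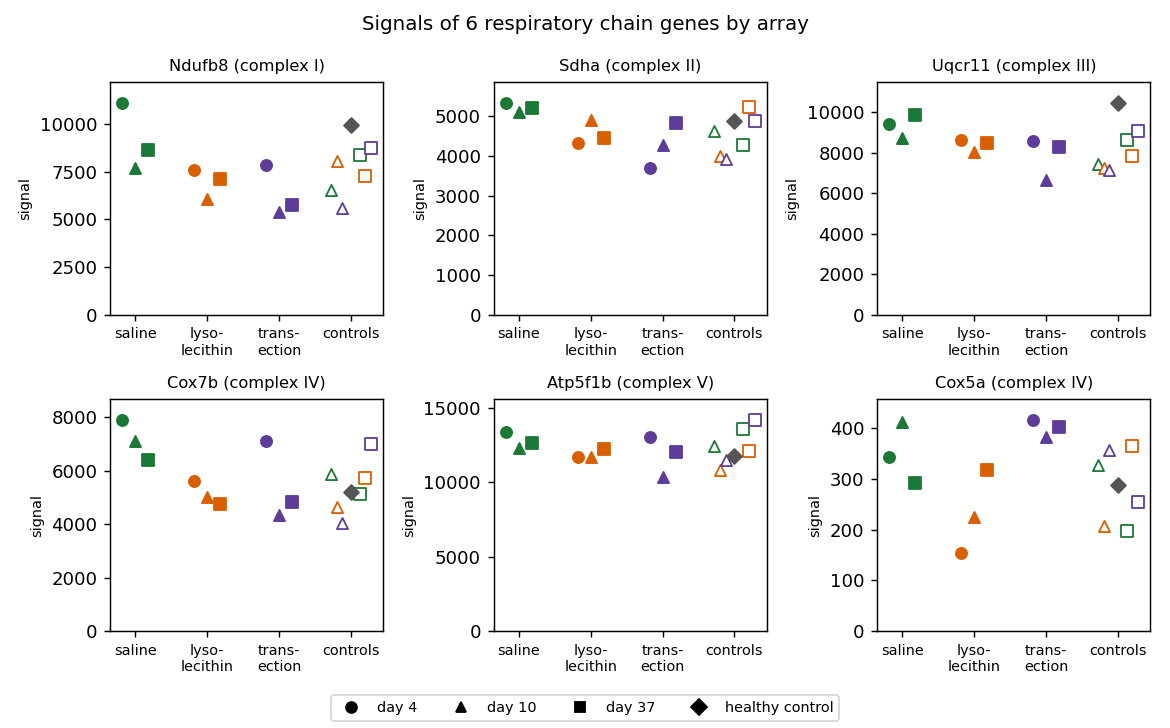
Deposited signal (vertical axis, from 0) of 6 respiratory chain genes on each array; filled points are lesion arrays by intervention, open points and the diamond are the 7 controls, and symbols give the day. Ndufb8 (rc_AA851403_g_at), Sdha, Uqcr11, Cox7b and Atp5f1b are mostly lower after transection than after saline, with controls spread across both, and Cox5a is lowest after lysolecithin day 4.

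Other energy genes were read beside them, and none of them passed. Among genes of the TCA cycle and pyruvate dehydrogenase, 9 of 10 tested (18 listed) were lower after transection, with a median of -0.20. Among carriers, channels and creatine kinase 5 of 7 (11 listed) were lower, with a median of -0.20, and among glycolysis enzymes 9 of 11 (16 listed), with a median of -0.13. Ribosomal proteins leaned the other way, with 35 of 40 higher and a median of 0.11. Of respiratory assembly and mitochondrial biogenesis genes only 1 of 16 was tested (-0.13).

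Cell type markers in the same comparison are given as values. The 6 tested microglia and macrophage markers were all higher after transection (median 0.33), 5 of 9 neuronal markers were lower (median -0.08) and 4 of 7 astrocyte markers were higher (median 0.06), with none past the threshold. Summed neuronal signal was 65091 to 75969 on saline lesion arrays, 59917 to 67911 on transection lesion arrays and 61466 to 78410 on controls. Summed microglia and macrophage signal was 11522 to 14023, 14566 to 15351 and 10582 to 21008, with Csf1r, Itgam and the Ptprc probe set in that sum Present on 0 arrays. A dimmer Ptprc probe set, Present on 4, was the one tested. Their part in the respiratory chain difference was not tested.

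The second comparison asks the same of demyelinated axons. Lysolecithin arrays were lower than saline arrays for 45 of 53 genes, with a median of -0.21 against 0.02 over all probe sets. No member passed (limma, 0 of 84, with 7 of 4413 or 0.159% passing in all). With no adjustment (p under 0.05), 19 genes were lower, where 9.93% of probe sets were, and 0 were higher, where 10.7% were. On all 3 days 31 genes were lower, against 22.3% of probe sets, and 21 were lower with no overlap, against 11.7%, while 0 were higher without overlap, against 11.4%. Counted by probe set, 33 of 84 members were lower and 2 higher without overlap. At the unadjusted p, 25 member probe sets were lower and 2 higher. Over all 1094 probe sets with signals over 2000 the median was -0.0626, with 59.2% lower, and over the 44 members among them -0.217, with 40 lower. The medians on days 4, 10 and 37 were -0.24, -0.13 and -0.19. The saline arrays are shared with the first comparison, so the values stand side by side and are not independent.

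Cox7b read 5632, 5030 and 4760 on lysolecithin days 4, 10 and 37. All were below the lowest saline array (6406), at a log2 difference of -0.47 ± 0.12 (limma adjusted p = 0.104). Ndufab1 read 4502, 4108 and 6220, below all saline arrays, at -0.61 ± 0.17 (adjusted p = 0.109). That is its brightest probe set. The other tested Ndufab1 probe set, AA799336_at, overlapped, at 796.5, 3025.4 and 2373.8 after lysolecithin and 2869.2, 2386.5 and 3916 after saline. Ndufb10, an accessory subunit of the membrane arm of complex I, read 4113, 2799 and 3168 after saline and 1758, 2303 and 2453 after lysolecithin, without overlap, with controls from 2090 to 3617 (median 2460) and transection at 3263, 1951 and 2670. Its difference was -0.62 ± 0.19 (adjusted p = 0.119), the lowest of the 53. By complex the medians were -0.23 (I, 24 of 27 lower), -0.08 (II), -0.12 (III, 4 of 4 lower), -0.21 (IV, 7 of 10) and -0.16 (V, 9 of 10).

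**Figure D4:**
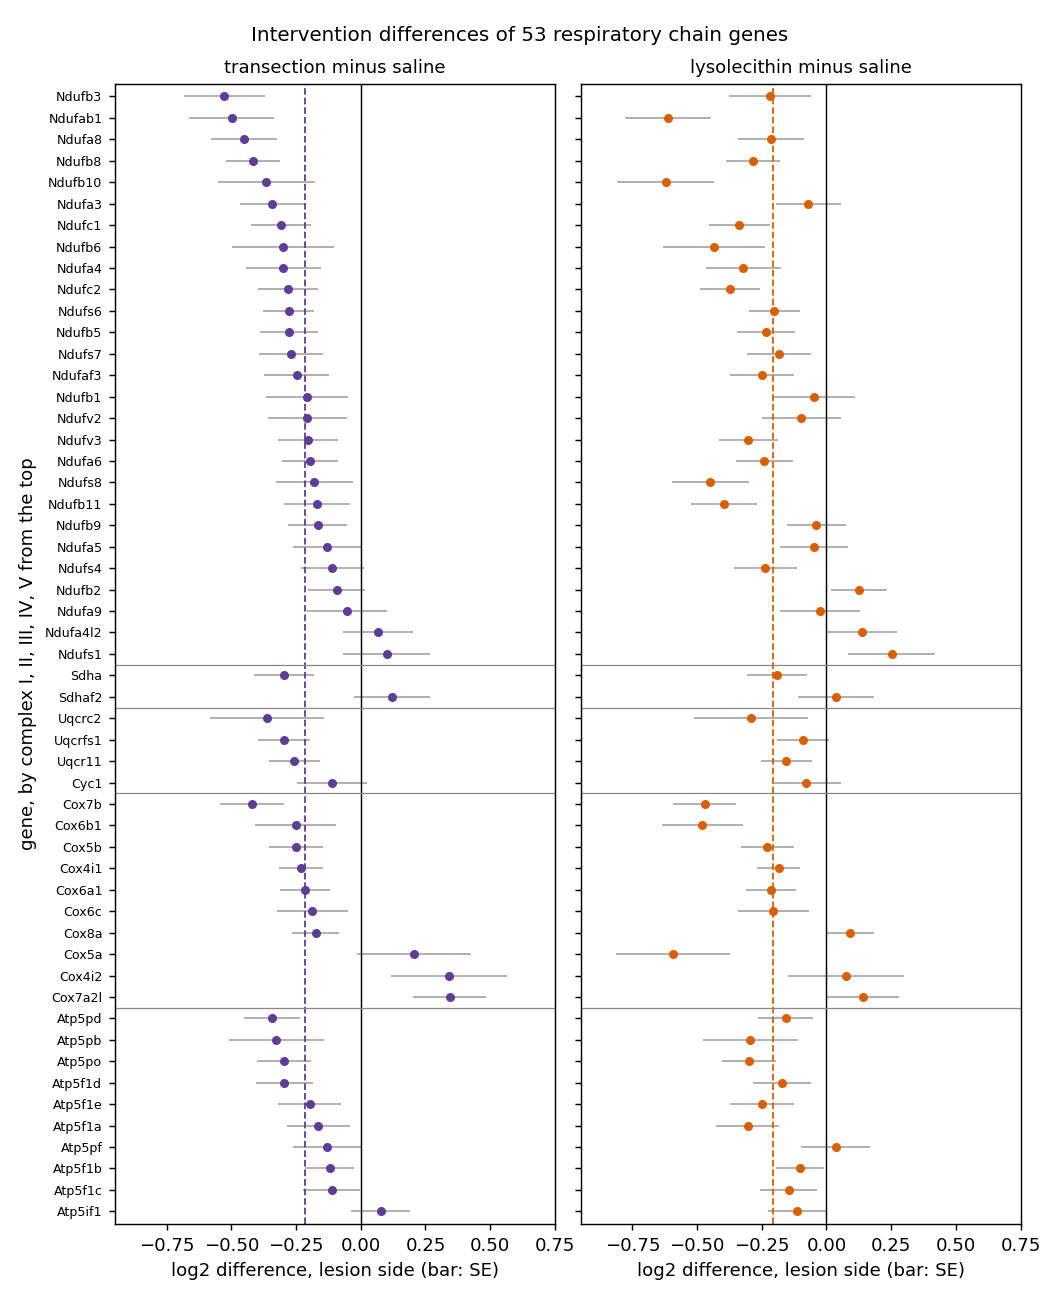
Log2 difference of each of the 53 genes from saline on the lesion side, for transection (left, median -0.22, dashed) and lysolecithin (right, median -0.21, dashed), with bars of 1 SE and genes grouped by complex. Most genes lie left of 0 in both panels, and Cox5a lies right of 0 after transection (0.21) and left of it after lysolecithin.

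Between transection and lysolecithin the members divided nearly evenly, with 29 lower and 24 higher and a median of -0.02. That median was -0.0799 without transection day 4 and 0.0208 without lysolecithin day 37. No member passed, while 21 of 4413 probe sets did (0.476%). By unadjusted p under 0.05, 1 gene was lower (Cox8a), against 6.8% of probe sets, and 1 was higher (Cox5a), against 6.75%. Cox5a read 153, 226 and 317 after lysolecithin, all below transection (415, 383 and 402), at a log2 difference of 0.80 ± 0.22 (limma adjusted p = 0.185). Cox8a, a small subunit of complex IV, read 16942, 16046 and 17844 after lysolecithin, 14765, 14073 and 13443 after transection, 15249, 15279 and 17216 after saline and 12881 to 20326 (median 15967) in controls. Its brightest probe set was without overlap, at -0.27 ± 0.09 (adjusted p = 0.233). Ndufa3 was close behind (-0.27 ± 0.13, adjusted p = 0.372), with lysolecithin arrays at 4308, 3507 and 4334. The other tested Cox8a probe sets all overlapped, each with transection above lysolecithin on some day. On day 10 rc_AI102505_at read 11848.6 after transection against 9756.2 after lysolecithin, and M28255_s_at 14272.5 against 14220.4. On day 4 L48209_s_at read 6228.5 against 5117.7.

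Across days on the lesion side the set was lower on day 10 than on day 4 for 40 of 53 genes, with a median of -0.17. No member passed by limma, and 2 of 4413 probe sets did (0.0453%). Without adjustment, at p under 0.05, 15 genes were lower, where 6.3% of probe sets were, and 4 were higher (Cox4i2, Cox6c, Ndufs1 and Sdhaf2), where 6.87% were. In all 3 interventions 25 genes were lower, against 17.5% of probe sets, and 12 were lower with no overlap, against 5.14%, while 4 were higher without overlap (Cox6c, Ndufb1, Ndufs1 and Sdhaf2), against 5.96%. The median was -0.0403 over the 1094 probe sets with signals over 2000 and -0.193 over the 44 members among them. Ndufa6 read 6323, 5018 and 5911 on day 4 (saline, lysolecithin, transection) and 4207, 3838 and 3685 on day 10. It was lower without overlap, at -0.55 ± 0.11 (limma adjusted p = 0.156), and controls read 3600 to 5139 (median 4396). A dimmer Ndufa6 probe set, rc_AI229924_at, was higher on day 10 in all 3 interventions, at 0.13 ± 0.14 (limma adjusted p = 0.721). Cox5b, the zinc-binding subunit of complex IV, read 12375, 10354 and 11868 on day 4 and 9252, 8246 and 7779 on day 10, also without overlap, at -0.45 ± 0.10 (adjusted p = 0.159), with controls at 7347 to 12338 (median 9456). Sdhaf2 went the other way, from 1052, 1169 and 938 to 1491, 1589 and 1856, at 0.64 ± 0.15 (adjusted p = 0.159).

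From day 10 to day 37, 42 of 53 genes were higher, with a median of 0.13. No probe set passed by limma (0% of 4413). At an unadjusted p under 0.05, 3 genes were higher (Cox5b, Ndufb3 and Ndufb8), where 4.06% of probe sets were, and 0 were lower, where 3.78% were, while 21 genes were higher in all interventions, against 18.4%. Ndufb8 (rc_AA964320_at) read 9770, 9049 and 7129 on day 10 and 13123, 10202 and 9222 on day 37, a log2 difference of 0.32 ± 0.10 that did not pass (adjusted p = 0.47). For Cox5b, day 37 read 11640, 9704 and 8562, a difference of 0.23 ± 0.10 (adjusted p = 0.613), and for Ndufb3 it was 0.35 ± 0.16 (adjusted p = 0.62), with lysolecithin arrays of 3070, 5057 and 5243 on days 4, 10 and 37.

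Between day 4 and day 37, 34 genes were lower and 19 higher, with a median of -0.07, which was -0.106 without lysolecithin day 4 and -0.0320 without transection day 4. No member passed, while 1 probe set did (0.0227%). With no adjustment (p under 0.05), 7 genes were lower, where 7.52% of probe sets were, and 5 higher, where 8.86% were. Cox6c read 1090, 779 and 800 on day 4 (saline, lysolecithin, transection) and 1373, 1207 and 1222 on day 37, with no overlap and 910 to 1813 (median 1196) in controls, a difference of 0.52 ± 0.14 (limma adjusted p = 0.148). A dimmer Cox6c probe set, M27467_at, read 187, 141 and 213 on day 4 and 106, 156 and 78.6 on day 37. It went the other way after saline and transection but not after lysolecithin, at -0.63 ± 0.26 (adjusted p = 0.27). Of the 24 genes with several tested probe sets, 13 had both signs in this comparison. Ndufb3 differed by 0.54 ± 0.16 (adjusted p = 0.163), and Ndufa6, at 5046, 4231 and 4101 on day 37, by -0.37 ± 0.11 (adjusted p = 0.167). Actin ratios on the lesion side were 1.68, 1.44 and 1.42 on day 4, 1.41, 1.20 and 1.08 on day 10 and 1.43, 1.22 and 1.07 on day 37, so day 4 had the higher ratio in each intervention.

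The saline lesion arrays were set against the 7 control arrays. Saline was higher for 46 of 53 genes, with a median of 0.19 (0.202 over the 44 members with signals over 2000, against 0.0645 over all 1094 such probe sets), and with 0 of 4413 probe sets past the threshold by limma (0%). By unadjusted p under 0.05, 6 genes were higher, where 4.49% of probe sets were, and 0 lower, where 7.95% were. For 32 genes all 3 saline arrays lay above the control mean, against 24.9% of probe sets, and only Ndufc2 lay above every control, against 1.02%. Among the 32 is Atp5pb (0.58 ± 0.51, limma adjusted p = 0.606), whose control mean is pulled down by the healthy array (480, control median 4433). Ndufc2, an accessory subunit of complex I, read 5466, 5153 and 4830 after saline and 3024 to 4614 (median 4025) in controls, at 0.40 ± 0.14 (adjusted p = 0.372), with lysolecithin at 4419, 3754 and 3762 and transection at 5277, 4086 and 3514. Ndufc1 differed by 0.32 ± 0.11 (adjusted p = 0.372) and Cox7b by 0.42 ± 0.16 (adjusted p = 0.378), with overlap in both.

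Lysolecithin lesion arrays lay on both sides of the controls: 24 genes were higher and 29 lower, with a median of -0.0025. No probe set passed by limma (0%), and at an unadjusted p under 0.05, 1 gene was lower (Ndufab1), where 2.38% of probe sets were, and 0 higher, where 2.27% were. Ndufab1 differed by -0.44 ± 0.16 (adjusted p = 0.972). Atp5f1a, the alpha subunit of the ATP synthase, read 4192, 4491 and 3952 after lysolecithin and 4280 to 5544 (median 4547) in controls, with saline at 5119, 5182 and 5299 and transection at 4914, 3995 and 5087. It differed by -0.19 ± 0.11 (adjusted p = 0.972). Ndufs8, an iron-sulfur core subunit of complex I, read 3570, 2448 and 3581 after lysolecithin and 3358 to 4389 (median 3580) in controls, with saline at 5097, 4274 and 3665 and transection at 3785, 3706 and 3908. Only its day 10 lysolecithin array lay below the controls (-0.21 ± 0.13, adjusted p = 0.972).

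After transection the lesion arrays differed from the controls in both directions, with 35 genes lower and 18 higher and a median of -0.04. That median was 0.0343 without transection day 10 lesion, the only array whose omission changed its sign. It was -0.108 without transection day 4 lesion and -0.0026 without transection day 37 contralateral. No member passed, and 1 of 4413 probe sets did (0.0227%). Without adjustment, at p under 0.05, 0 genes were lower, where 5.76% of probe sets were, and 1 was higher (Cox5a), where 5.28% were. Cox5a lay above every control, at 0.50 ± 0.21 (limma adjusted p = 0.399). Ndufab1 (-0.32 ± 0.16, adjusted p = 0.475) and Cox4i1 (-0.19 ± 0.10, adjusted p = 0.482) followed, both overlapping the controls.

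The 6 pairs of lesion and contralateral arrays from the same intervention and day gave a median of -0.0039, with 28 genes lower and 25 higher. No probe set passed by limma (0%). At an unadjusted p under 0.05, 0 member genes were lower, where 2.22% of probe sets were, and 0 higher, where 2.74% were. Pair medians were 0.13 and 0.11 for saline days 10 and 37, -0.05 and 0.07 for lysolecithin and 0.02 and -0.28 for transection. The transection day 37 pair had 44 of 53 genes lower on the lesion side, and its ratios were 1.07 and 1.53, lesion first. The saline day 37 pair was as one-sided the other way, with 44 of 53 higher and ratios of 1.43 and 1.27. The median over pairs was 0.0570 without the transection day 37 pair and -0.0411 without the saline day 10 pair. In the other pairs the ratios were 1.41 and 1.35, 1.20 and 1.17, 1.22 and 1.16, and 1.08 and 1.07, lesion first. The smallest p-values were those of Cox5a (0.25 ± 0.13, adjusted p = 0.945), Ndufb3 (0.20 ± 0.13, adjusted p = 0.945) and Atp5pd (0.13 ± 0.10, adjusted p = 0.948).

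When log2 of the actin ratio was added as a term, the medians of several comparisons crossed or approached 0. Transection minus saline went from -0.22 to 0.22 (34 of 53 genes higher), lysolecithin minus saline from -0.21 to 0.06, day 10 minus day 4 from -0.17 to 0.14 and day 37 minus day 4 from -0.07 to 0.23. Over all tested probe sets the medians with the ratio were 0.0815, 0.0809, 0.0647 and 0.0654 in the same order. The lysolecithin median of the members was thus below that of all probe sets. In these 9 arrays, however, intervention and day together account for 96.8% of the variance of the log2 ratio, and the median SE over the 53 genes for transection minus saline rose from 0.123 to 0.46. On the lesion side the ratio and the conditions therefore cannot be told apart, and the fit with the ratio has 3 residual degrees of freedom.

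In the 16-array fit the 4 groups account for 36% of the variance of the ratio. That fit has no term for day or for the lesion and contralateral pairing. In each intervention the day 4 lesion array had the highest ratio of the lesion side. Among the lesion arrays the slope on the ratio is therefore not separated from the day. In the 7 controls, which hold no day 4 array, the score followed the ratio with r = 0.885. The part of the day in the relation was not tested on either side. The members' slope on the log2 ratio within groups had a median of 0.398, above 0 in 43 of 53 genes, against 0.0348 and 52% over all probe sets. With the ratio as a term the saline minus control median went from 0.19 to 0.03. Transection minus saline, computed in the same 16-array fit (an analysis added after the data were seen), went from -0.22 to -0.05 (32 of 53 genes lower) and lysolecithin minus saline from -0.21 to -0.10 (35 of 53 lower), with 0 members past the threshold in either.

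Arrays with nearly equal ratios were also set side by side. Among the 4 lesion arrays with ratios of 1.41 to 1.44, saline day 10 scored 0.07, transection day 4 also 0.07, saline day 37 0.17 and lysolecithin day 4 -0.06. At the low end, transection day 10 lesion (ratio 1.08) and transection day 10 contralateral (1.07) scored -0.15 and -0.19. Transection day 37 lesion (1.07) scored higher, at -0.05, as did the healthy control (1.04), at -0.08. Lysolecithin day 4 was the array that scored lowest for its ratio among these.

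**Figure D5:**
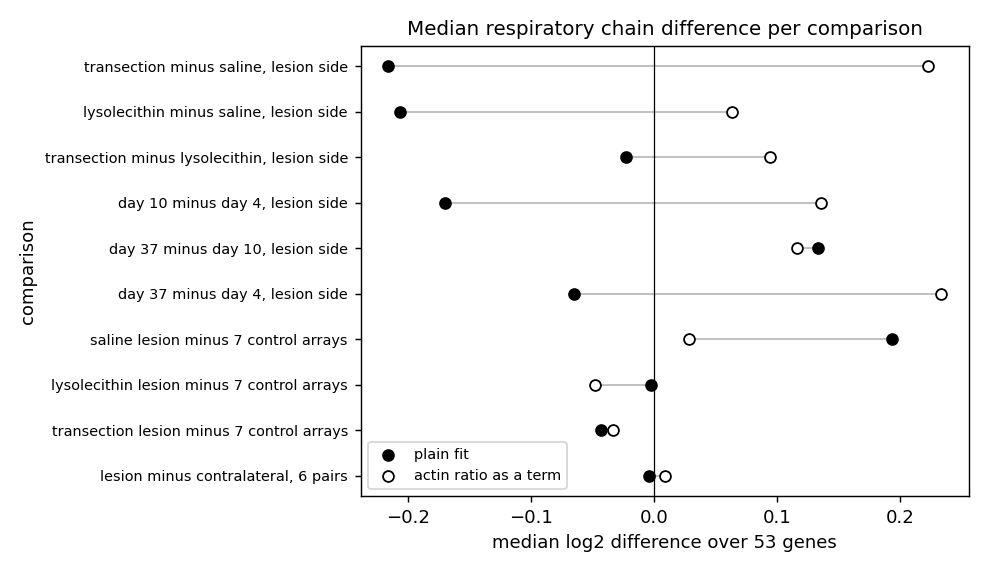
Median log2 difference over the 53 genes in each of the 10 comparisons (rows), from the plain fit (filled) and with log2 of the beta-actin 3′/5′ ratio as a term (open). Transection minus saline moves from -0.22 to 0.22, where the median SE of a gene grows from 0.123 to 0.46, and saline minus controls moves from 0.19 to 0.03.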

How the data were processed

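Per the labels' protocols, total RNA was extracted with Trizol, primed with oligo-dT, transcribed to biotin-labelled cRNA and hybridised to 1 array per condition. MAS5 is named in the submitters' processing notes. The authors scaled its signal, a linear intensity for each probe set, to a trimmed mean of about 801 on every array. Per the file headers the files also give Present, Marginal or Absent calls with their detection p-value. The deposited series value table holds log2 values of 7773 probe sets, its making is not stated, and it served as an alternative source. Scale, centring and direction of that table beyond this were not used.

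Signals were analysed as log2(signal + 16). Probe sets Present on at least 3 of 16 arrays were tested, without the spiked and housekeeping control probe sets, giving 4413. A gene was read by its brightest tested probe set. limma 3.58.1 in R 4.3.3 (lmFit, eBayes with an intensity trend, Benjamini-Hochberg over all tested probe sets, threshold 0.05) was used in 3 designs: the 9 lesion arrays with intervention and day (4 residual degrees of freedom), 16 arrays in 4 groups (12) and 6 pairs with the pair as a block (5). The fit was tested on simulated data. P-values measure the spread between arrays of different conditions. Platform symbols were 1 for 6283 probe sets, several for 280 and none for 2236. Promoters and figures used Python 3.11.15, pandas 2.3.3 and matplotlib 3.10.9.

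The members and lists were chosen with earlier results of these data known. Array values are given for members past the threshold, the brightest of each complex, the 12 genes of smallest p and up to 4 of opposite sign between transection and saline, and the 3 of smallest p in each other comparison. Alternatives were no detection filter, another pseudocount, quantile and median scaling, the series table, no trend, array weights, the actin ratio as a term, other designs and leaving out each array.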

Additional observations from a re-analysis of the deposited data

Results flagged for a closer look

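Of 32 items checked, 7 met a rule for a closer look. The items covered 28 named probe sets and not every member. Outside them, Atp5pb read 480 on the healthy control array against a control median of 4433. Atp5pf by X54510_g_at read 1122 there against 3743. Ndufs8 by its brightest probe set, rc_AA799479_g_at, had a log2 signal of 12.1 on the healthy control array. The nearest of the other 6 control arrays was at 11.87, and the healthy array had the lowest actin ratio (1.04). Another tested Ndufs8 probe set, AA685112_at, read lowest of the controls on the healthy array (846, control median 1000), so the gap belongs to a probe set and not to the gene. For a single array apart from its group, chance alone flags about 1 in 20 groups.

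The other 6 concern lesion minus contralateral differences on days 10 and 37 that had one sign in both transection pairs (for Ndufb10, both lysolecithin pairs) and the opposite sign in both saline pairs. With so few pairs, signs fall this way by chance more often than 1 in 20, and the genes share arrays, so 6 such items are not 6 independent ones. The difference between those differences was -0.4145 and -0.4725 for the Ndufb8 probe sets rc_AA964320_at and rc_AA851403_g_at, -0.3975 for Atp5po, -0.3396 for Cox4i1 and -0.4335 for Ndufa3 (limma adjusted p = 0.997 for each). For Ndufb10 the same contrast between lysolecithin and saline was -0.2426 (adjusted p = 1). In each transection case the day 37 pair held most of the difference, with actin ratios of 1.07 and 1.53 on its arrays. The part of the ratio in it was not tested.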

How the results depend on the processing

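The count of 1 member probe set past the threshold between transection and saline became 0 without a detection filter, with quantile normalization, median centring, the series value table, no intensity trend, array weights, the actin ratio as a term, no replicate block (day dropped), days 10 and 37 alone, the difference of lesion minus contralateral differences, and 16 arrays in 4 groups with or without the ratio. It was 0 to 0 when any 1 array was left out, and the cause was not tested. Counts of members past the threshold stayed at 0 in the other 9 comparisons under every alternative run. The median over genes between transection and saline ranged from -0.25 to -0.18 under the other alternatives and became 0.22 with the ratio as a term, and -0.0475 in 16 arrays with the ratio. Lysolecithin minus saline was -0.14 in the series table, -0.12 as a difference of differences, 0.0634 with the ratio and -0.10 in 16 arrays with the ratio, and -0.25 to -0.15 leaving out 1 array. Transection minus lysolecithin was 0.0942 with the ratio and -0.14 as a difference of differences. With the ratio, day 10 minus day 4 was 0.14, day 37 minus day 4 was 0.23 and saline minus controls was 0.0288. Leaving out 1 array, day 37 minus day 10 was 0.0934 to 0.16, and the medians that started near 0 crossed it in transection minus lysolecithin (-0.0799 to 0.0208), transection minus controls (-0.108 to 0.0343), lysolecithin minus controls (-0.0384 to 0.0154) and the pairs (-0.0411 to 0.0570), while day 37 minus day 4 was -0.106 to -0.0320 and day 10 minus day 4 was -0.21 to -0.11.

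Of 1005 values of single genes under alternatives, 967 kept their direction and side of the threshold, 19 (all of Ndufb8 rc_AA851403_g_at) no longer passed and 19 reversed. With the actin ratio as a term the reversed values were, between transection and saline, 0.0915 for Ndufb8 (rc_AA964320_at), 0.57 for Ndufa8, 0.34 for Cox7b, 0.29 for Ndufb3, 0.19 for Uqcrfs1, 0.28 for Atp5po, 0.0025 for Cox4i1, 0.58 for Ndufa3, -1.67 for Cox4i2 and -0.94 for Sdhaf2. In the same fit they were 0.0301 for Cox7b (lysolecithin minus saline), 0.0428 for Ndufa3 (transection minus lysolecithin), 0.15 for Cox5b and -0.29 for Sdhaf2 (day 10 minus day 4) and 0.0250 for Ndufa6 (day 37 minus day 4). As a difference of differences Atp5pd was 0.0203 and Cox5a -0.0559, Cox5a was -0.0317 without the saline day 37 array, and Atp5pd in the pairs was -0.0039 in the series table. The correlation of score and ratio was 0.76 with quantile normalization and 0.793 in the series table. With 1 array per condition, no result separates a condition from its array.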
